A study of Mus musculus with 64 samples.

Results

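The otic placode is a thickened patch of ectoderm beside the hindbrain from which the inner ear and its sensory neurons arise. Here the placode of mouse embryos at embryonic day 9 (E9) was set against the tissue dissected away from it at the same stage. The comparison was chosen by the sample names alone, and it holds 4 arrays of 64 in the series, 2 of placode and 2 of surrounding tissue. All embryos were of the inbred CBA/J strain, with no transgene and no treatment, and were staged at E9 by counting somites. The 2 placode arrays carry RNA of pools of 14 and 13 placodes, and the 2 arrays of surrounding tissue carry pools of 8 and 9 pieces. Both kinds of tissue were loosened in the protease dispase for the same short time before the epithelium was dissected out, and the duplicate pools came from different litters. As a setting for E9, the text also uses 8 arrays of the inner ear at E9.5, E10 and E10.5 and 2 arrays of surrounding tissue pooled over those stages, which had the same dispase time.

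The placode is an epithelium: its cells are joined by tight junctions, adherens junctions and desmosomes and rest on a basement membrane. The tissue around it at this stage is known to include the hindbrain wall, cranial mesenchyme, neural crest cells, blood vessels with blood, and surface ectoderm. The placode forms under FGF and Wnt signals, takes on otic identity through transcription factors such as Pax2, Pax8, Gata3 and Dlx5, then sinks in as a cup and closes into the otic vesicle. Transcription factors of the Zeb, Snai and Twist families are known to hold epithelial genes down in mesenchyme, so the balance between them and junction genes is a common way to read how epithelial a tissue is.

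Values are probe set signals after quantile normalization of all 64 arrays, where 10 is the lowest signal deposited. Changes are placode minus surrounding tissue on the log2(signal + 16) scale with their standard error (SE), which understates changes of genes with low signals. A gene was called higher or lower when the limma adjusted p was below 0.05 and the change was at least 1 log2. In bulk tissue, fewer cells of a type and less RNA per cell cannot be told apart. Array signals of different genes are not on 1 scale, so levels are compared within a gene only, apart from summed signals of lists. Such a sum follows the brightest probe sets of its list and can hide changes of dim genes.

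Of 9352 genes tested, 253 were higher in the placode (2.71%) and 302 were lower (3.23%), which is 5.93% in either direction. Counts of called members of each gene list below are to be read beside these shares. The 2 arrays of each tissue did not overlap for 6203 genes (66.3%), so a lack of overlap alone says little with 2 arrays against 2. Past a change of 2 log2 lay 31 higher and 40 lower genes, and past 3 log2 lay 6 and 6. The placode arrays correlated with each other at 0.986 across probe sets and the surrounding arrays at 0.987, while placode and surrounding arrays correlated at 0.937 to 0.947. Array medians as deposited were 104.5 and 101.6 in the placode, against 74.1 and 73.6 in the surrounding tissue. Without between-array normalization the median change of all genes would therefore be 0.32 in place of -0.05, and 87.4% of the called genes would be higher in place of 45.6%. Changes below are relative to that median. Of 115 named genes called at E9, 0 changed sign on the deposited scale. That was nearly fixed in advance, because a call needs a change of at least 1 log2 and the median moved by less. The called genes on that scale were 863 higher and 124 lower.

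Krt23, which encodes an acidic keratin of simple epithelia, separated the tissues most. It had signals of 2510 and 2772 in the placode, against 26.3 and 38.6 in the surrounding tissue (log2 5.79, SE 0.25). Rgcc, a regulator of cell cycle kinases, followed with 1687 and 1572 in the placode, against 89.3 and 71.9 around it (4.10, SE 0.18). Cnmd, whose product chondromodulin is known from avascular cartilage, had 364 and 463 in the placode and was at the minimum of 10 on both surrounding arrays, which makes it at least 41.1-fold higher. Wfdc2, a secreted protease inhibitor of epithelia, had 395 and 479 in the placode, against 23.0 and 23.1 (3.53, SE 0.19). Lack of overlap between the tissues was a condition for these 4 genes to be named among the largest changes.

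Signalling and metabolic genes were also among the 15 largest higher changes. Rnf43, a ubiquitin ligase that clears Wnt receptors from the cell surface, had 375.9 and 380.8 in the placode, against 31.4 and 72.5 in the surrounding tissue (2.61, SE 0.31). Erbb3, a receptor for neuregulins, had 1110 and 1015 in the placode, against 166 and 161 (2.59, SE 0.17). Mpzl2, an epithelial adhesion protein of the immunoglobulin family, had 1694 and 1987, against 256 and 337 around the placode (2.58, SE 0.18). The transporter gene Slc7a3, which carries cationic amino acids, had 438 and 439.6 in the placode, against 48.5 and 49.1 (2.81, SE 0.24). Bpgm, which makes 2,3-bisphosphoglycerate from an intermediate of glycolysis, had 923 and 843 in the placode, against 129.9 and 148.9 (2.53, SE 0.22). Each of these genes stood far above both surrounding arrays on both placode arrays.

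**Figure D1:**
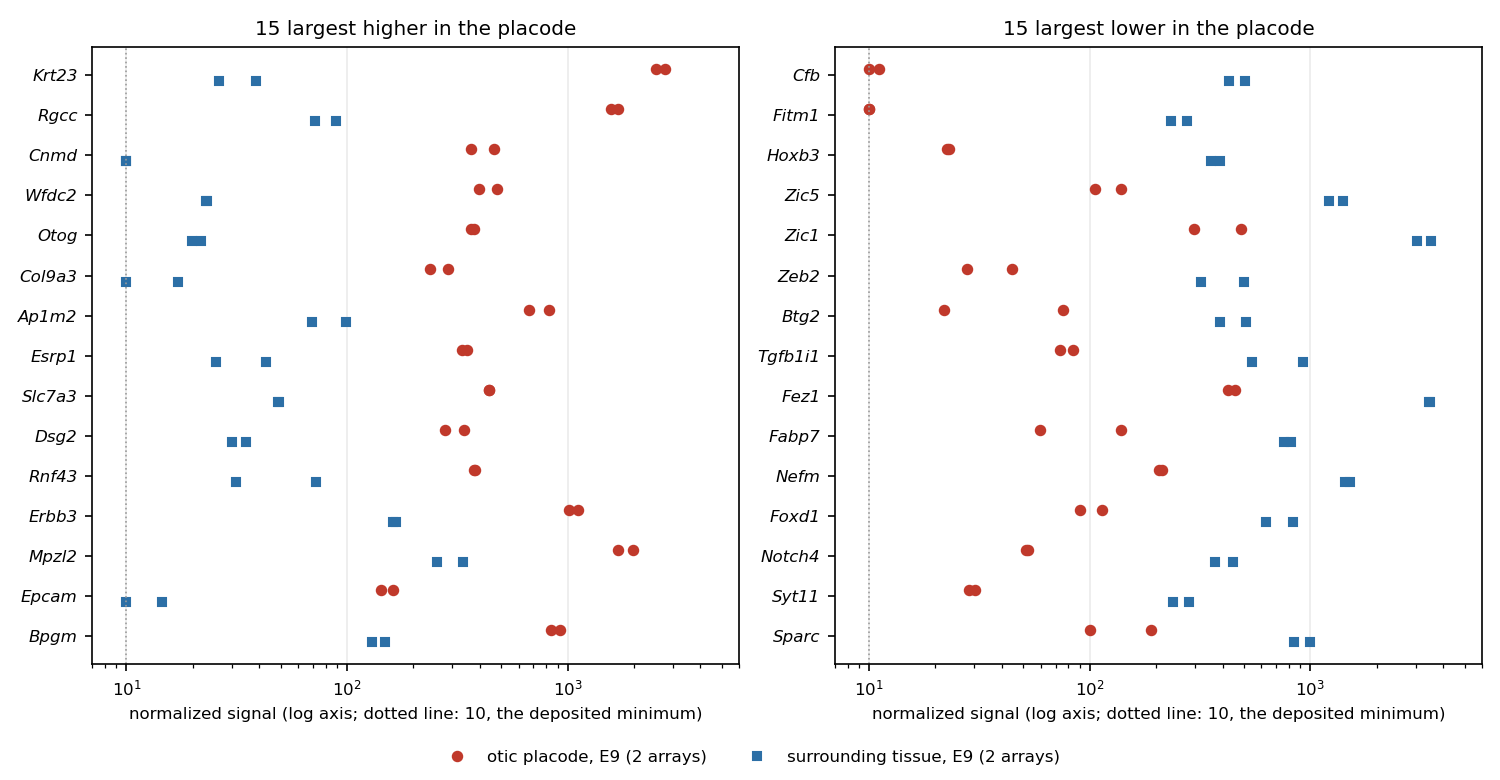
Normalized signal of each E9 array (log axis) for the 15 genes with the largest positive change (left) and the 15 with the largest negative change (right); circles are the 2 placode arrays and squares the 2 arrays of surrounding tissue. The 30 genes were chosen among called genes without overlap of the tissues. Krt23 has the widest gap, with 2510 and 2772 in the placode against 26.3 and 38.6 around it.

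The largest negative change belonged to Cfb, complement factor B, at 10 and 11.1 in the placode, against 428 and 507 in the surrounding tissue (-4.18, SE 0.51). Tgfb1i1, which encodes an adaptor of focal adhesions in contractile and mesenchymal cells, had 84.4 and 73.7 in the placode, against 544 and 928 (-2.94, SE 0.30). Sparc, a matrix glycoprotein, had 188.7 and 100.1 in the placode, against 995 and 840.0 (-2.59, SE 0.19). Syt11, a synaptotagmin of membrane traffic, had 30.1 and 28.4 in the placode, against 239.6 and 281.3 (-2.61, SE 0.25). These 4 genes were lower on both placode arrays by a wide margin.

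2 of the 15 lowest genes are less certain. Fitm1, a gene of lipid droplet formation, was at 10 on both placode arrays, against 232 and 277 around the placode, which makes it at least 25.4-fold lower. Its probe set varied so much over the series (SE 1.01) that the call was lost without any 1 of the 4 arrays, with values of -3.49 to -3.26. Btg2, a gene that slows division in differentiating cells, had 75.4 and 21.9 in the placode, against 390.3 and 509.1 in the surrounding tissue (-2.97, SE 0.29), while its other probe set changed by 0.08. Among all called genes, 189 had another probe set and 29 of these pointed the other way.

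Epithelial junction genes formed the clearest group. Of 27 measured genes for junctions and cell polarity, 15 were higher in the placode and 0 were lower, against 2.71% higher over all genes, and the median change of the list was 1.15. Their summed signal was 13150 and 12950 in the placode, against 5425 and 6416 in the surrounding tissue. Ap1m2, the epithelial subunit of a clathrin adaptor that sorts proteins to the basolateral membrane, had 667 and 824 in the placode, against 69.3 and 98.7 (2.94, SE 0.21). Epcam, an adhesion molecule of epithelia, had 161 and 143 in the placode, against 10 and 14.4 (2.58, SE 0.18). Dsg2, a desmosomal cadherin, had 339.6 and 278.7 in the placode, against 34.8 and 30.2 (2.74, SE 0.24). Cldn6 and Marveld2, both of tight junctions, were higher by 2.20 (SE 0.36) and 2.08 (SE 0.27), and Pkp3, a plaque protein of desmosomes, by 1.83 (SE 0.28). The other probe set of Pkp3 changed by only 0.045, and 3 other probe sets of Dsg2 changed by 0.34 to 2.68.

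The surrounding tissue was not free of epithelial RNA. Cdh1, which encodes E-cadherin, had 544 and 554 in the placode and still 194 and 161 in the surrounding tissue (1.55, SE 0.19). Of the 7 higher genes among 19 epithelial regulators and membrane proteases, Prss8, an anchored serine protease, had 1041 and 1083 in the placode, against 312 and 378 (1.58, SE 0.27). St14, the membrane protease matriptase, had 417 and 423 in the placode, against 74.9 and 109.9 (2.03, SE 0.21). Esrp1, a splicing factor that sets epithelial isoforms, had 349.6 and 332.9, against 25.4 and 43.0 (2.85, SE 0.20). Spint1, an inhibitor of these proteases, was higher by 1.57 (SE 0.19), and Arhgef16, an exchange factor for small GTPases, by 1.20 (SE 0.23). The call of Arhgef16 was lost without replicate 1 of the surrounding tissue, at 0.75. The other 12 genes of this list did not pass.

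Of 8 measured keratin genes 4 were higher in the placode and 0 lower. Krt8 had 541 and 567 in the placode, against 115 and 128 around it (2.06, SE 0.24), and its partner Krt18 was higher by 1.97 (SE 0.22). Krt7 was higher by 1.14 (SE 0.25). Together with Krt23 these are keratins of simple epithelia. Krt5 and Krt14, keratins of basal epidermal cells, gave changes of -0.53 (SE 0.19) and 0.15 (SE 0.28) and were not called.

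Promoters of epithelial genes are shown so that they can be read beside the Zeb and Snai genes described next. The core CAGGTG is the DNA element that Zeb and Snai proteins are known to bind, and it was searched on both strands (CAGGTG or CACCTG) in the 250 bases before each annotated start in the RefSeq promoters of build GRCm38.p6. Of the 26 junction, protease and keratin genes higher in the placode, 19 matched the promoter table, and 16 of these 19 hold the core in at least 1 promoter (84.2%). Among all 7515 tested genes with a promoter there, 1420 hold it (18.9%), and over all 32851 promoters of the table the share is 17.2%. Of 18 mesenchymal regulator, matrix and endothelial genes lower in the placode, 10 matched, and 0 of these 10 hold the core in any promoter. Their 15 promoters include several of Zeb2 and of Mef2c, and 10 genes are few beside a share of 18.9%. Over all called genes the shares were 30.7% of 189 higher genes and 13.4% of 224 lower genes. In the sequences below, 5′ to 3′ on the gene's strand, capitals mark the core, and the last base lies next to the annotated start.
Ap1m2, chr9:21312334-21312583, minus strand: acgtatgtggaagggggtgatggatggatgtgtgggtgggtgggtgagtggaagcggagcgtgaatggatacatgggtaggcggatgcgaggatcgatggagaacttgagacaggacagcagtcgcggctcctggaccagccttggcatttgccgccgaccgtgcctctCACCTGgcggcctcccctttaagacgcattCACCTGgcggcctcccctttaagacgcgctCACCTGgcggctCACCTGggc
Rab25, chr3:88548280-88548529, minus strand: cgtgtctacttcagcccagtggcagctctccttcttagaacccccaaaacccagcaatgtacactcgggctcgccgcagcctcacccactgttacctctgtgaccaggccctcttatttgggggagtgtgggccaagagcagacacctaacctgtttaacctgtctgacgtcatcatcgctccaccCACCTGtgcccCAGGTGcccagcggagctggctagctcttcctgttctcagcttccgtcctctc
Epcam, chr17:87635729-87635978, plus strand: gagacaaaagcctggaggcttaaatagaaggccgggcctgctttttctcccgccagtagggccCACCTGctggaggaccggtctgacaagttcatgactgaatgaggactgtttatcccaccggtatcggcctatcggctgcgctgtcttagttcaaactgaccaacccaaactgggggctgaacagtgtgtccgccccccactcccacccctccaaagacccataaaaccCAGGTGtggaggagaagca
Cldn7, chr11:69965171-69965420, plus strand: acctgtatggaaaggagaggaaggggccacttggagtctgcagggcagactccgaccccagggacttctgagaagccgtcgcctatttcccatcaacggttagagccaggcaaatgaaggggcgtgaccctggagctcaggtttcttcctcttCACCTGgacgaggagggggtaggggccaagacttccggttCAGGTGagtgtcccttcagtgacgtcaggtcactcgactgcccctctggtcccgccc
Krt23, chr11:99493121-99493370, minus strand: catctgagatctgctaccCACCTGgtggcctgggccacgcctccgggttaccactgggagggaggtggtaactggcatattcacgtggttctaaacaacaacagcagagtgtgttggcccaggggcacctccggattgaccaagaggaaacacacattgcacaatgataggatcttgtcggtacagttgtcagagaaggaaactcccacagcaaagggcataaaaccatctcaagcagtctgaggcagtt
Twist1, chr12:33957421-33957670, plus strand: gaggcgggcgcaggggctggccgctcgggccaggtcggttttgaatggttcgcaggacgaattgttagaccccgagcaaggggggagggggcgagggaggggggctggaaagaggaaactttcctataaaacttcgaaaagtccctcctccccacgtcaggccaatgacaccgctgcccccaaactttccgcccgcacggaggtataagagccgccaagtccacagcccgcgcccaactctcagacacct
Ap1m2 holds 4 copies, beginning at positions -81, -51, -21 and -9 from the start, and Rab25 holds 2 at -64 and -53. Epcam has copies at -187 and -19, Cldn7 at -97 and -57, and Krt23 1 copy at -232, while Twist1, itself lower in the placode, has none in this window. Another promoter of Cldn7, not shown, has none either. Among the higher epithelial genes, Marveld2, Spint1 and Tjp1 have none in any of their promoters and are not shown. Rab25, a small GTPase of epithelial recycling, was higher by 1.16 (SE 0.25) and the tight junction gene Cldn7 by 1.81 (SE 0.21). A match is a stretch of letters and not evidence of binding, and no test was made on these shares, which rest on gene lists chosen with earlier results known.

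Regulators of the mesenchymal state ran the other way. Of 18 measured genes for transcription factors of mesenchyme and of the transition from epithelium to mesenchyme, 9 were lower in the placode and 0 were higher, against 3.23% lower over all genes, with a list median of -0.89 (4 lower and -0.49 on the deposited scale). Without placode replicate 1 the count of lower genes was 5. Their summed signal was 1354 and 1432 in the placode, against 3555 and 3073 in the surrounding tissue. Zeb2, a repressor of E-cadherin, had 44.5 and 27.7 in the placode, against 501 and 320 (-3.02, SE 0.28). Twist1, a bHLH factor of cranial mesenchyme, had 29.9 and 60.8 in the placode, against 293 and 223 (-2.19, SE 0.31). Snai2 had 12.4 and 10 in the placode, against 52.4 and 40.7 (-1.20, SE 0.29). Foxd1, a forkhead factor, had 90.5 and 113.8 in the placode, against 838 and 628 (-2.66, SE 0.35), and Mef2c, of muscle and mesenchyme, changed by -1.39 (SE 0.20). The 2 other probe sets of Mef2c changed by -2.41 and 0.16. Meox2 (-1.27, SE 0.28) and Zeb1 (-1.26, SE 0.39) were lower too. Meox2 was not called without placode replicate 1, at -0.80, and Zeb1 not without placode replicate 1 (-1.04) or either replicate of the surrounding tissue (-1.12 and -1.39).

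Genes of the mesenchymal matrix were lower in fewer cases, 5 of 27 with 0 higher and a median of -0.31, or 3 lower and 1 higher on the deposited scale, and 3 lower without placode replicate 1. Mmp2, a matrix metalloproteinase, had 536 and 564 in the placode, against 2097 and 1967 in the surrounding tissue (-1.85, SE 0.17). Lum, a small proteoglycan, was lower by -1.79 (SE 0.38) and the collagen gene Col3a1 by -1.16 (SE 0.28). Pdgfra, a receptor of mesenchymal cells, had 860 and 1444 in the placode, against 2884 and 2742 (-1.32, SE 0.33), and Igf1 was lower by -1.09 (SE 0.31). Other probe sets changed by less than 1 log2 for Col3a1 (-0.43), Pdgfra (-0.37) and Igf1 (-0.36 and -0.17). The other probe set of Mmp2 changed by -1.89. Without placode replicate 1 the calls of Pdgfra (-0.95) and Igf1 (-0.78) were lost, and Igf1 also without replicate 1 of the surrounding tissue (-0.89). Col1a1, the main fibrillar collagen of later mesenchyme, was at 10 on both placode arrays, against 10 and 11.7 in the surrounding tissue, so it did not separate the tissues at this stage.

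Endothelial genes were lower in the placode where they were called at all. Of 16 endothelial genes 4 were lower and 0 higher, and their summed signal was 1485 and 1592 in the placode, against 3017 and 2668 in the surrounding tissue. Pecam1, an adhesion molecule of endothelium, had 18.81 and 13.54 in the placode, against 137 and 120 (-2.17, SE 0.30). Kdr, the main VEGF receptor, had 99.5 and 119.5, against 418 and 348 (-1.67, SE 0.22). Lmo2 was lower by -1.69 (SE 0.25), and Sox17 by -2.07 (SE 0.29), though Sox17 changed by only -0.24 when no filter on dim probe sets was used. Notch4, a Notch receptor of endothelium, had 51.6 and 52.7 in the placode, against 447 and 371 (-2.64, SE 0.38), and the vascular cadherin gene Cdh5 was lower by -1.49 (SE 0.24). Plxnd1, a semaphorin receptor of vessels, was lower by -2.30 (SE 0.27).

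Red blood cells were represented in both tissues. Of 12 red cell genes 0 were called in either direction by limma, and the list median was -0.16, or 0.10 on the deposited scale. Hbb-bh1 had 978 and 1169 in the placode, against 1131 and 1577 in the surrounding tissue (-0.32, SE 0.41), and Hba-x had 494 and 733, against 719 and 1356 (-0.70, SE 0.44). Of 11 white blood cell genes 2 were lower. The Fc receptor gene Fcgr3 had 13.7 and 11.1 in the placode, against 94.0 and 73.8 (-1.81, SE 0.35), and the macrophage receptor gene Mrc1 was lower by -1.73 (SE 0.47). Mrc1 lost its call without placode replicate 2 (-1.48) or replicate 2 of the surrounding tissue (-1.65). What part the blood RNA in the placode pools has in any other change was not tested.

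Hindbrain genes were lower in the placode in 7 of 16 cases and higher in 0, with a median of -0.79 (2 higher and 7 lower on the deposited scale). The zinc finger genes Zic1 and Zic5, of the dorsal neural tube, had 298 and 484 and 105.9 and 138.6 in the placode. In the surrounding tissue Zic1 had 3537 and 3049 and Zic5 had 1401 and 1219. Nes, the intermediate filament gene of neural progenitors, had 514 and 509 in the placode, against 2490 and 3367 (-2.46, SE 0.36), while its other probe set changed by 0.06. Egr2, which marks rhombomeres 3 and 5 of the hindbrain, had 37.1 and 37.7 in the placode, against 202 and 117 (-1.67, SE 0.19). Fabp7, of radial glia, was lower by -2.90 (SE 0.59) and Gli2, a Hedgehog effector, by -1.56 (SE 0.24). The summed signal of the list was 7081 and 7151 in the placode, against 15260 and 16060.

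Of 24 measured genes of neurons and neurogenic factors, 7 were lower (29.2%, beside 3.23% of all genes). Only 1, Elavl2, was higher (4.17%, beside 2.71%). Fez1, of axon outgrowth, had 426 and 454 in the placode, against 3472 and 3463 in the surrounding tissue (-2.93, SE 0.31). Nefm, a neurofilament gene, had 213.6 and 206.2 in the placode, against 1511 and 1432 (-2.72, SE 0.65), and Stmn4 was lower by -2.51 (SE 0.60). Crmp1 (-1.77, SE 0.26) and Gap43 (-1.55, SE 0.34), both of growing axons, were lower as well. Neurog2, a proneural factor, had 130.6 and 24.3 in the placode, against 333 and 263 (-2.02, SE 0.34), so its placode arrays differed widely from each other, and it was not called in a fit of the 4 E9 arrays alone. Elavl2, which lies outside the rule for named genes and was named after its value was seen, encodes an RNA-binding protein of neurons and had 153 and 138 in the placode, against 36.9 and 52.7 (1.42, SE 0.21). Neurog1, the proneural factor of the ear's own ganglion, had 71.0 and 87.7 in the placode, against 79.2 and 95.2 (-0.12, SE 0.16), and was not called.

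Hox genes, which give position along the hindbrain and trunk, were lower in 5 of 14 cases and higher in 0. Hoxb3 had 22.4 and 23.0 in the placode, against 390.0 and 353.4 in the surrounding tissue (-3.32, SE 0.25). Hoxb1, of rhombomere 4, had 120 and 38.8 in the placode, against 504 and 491 (-2.57, SE 0.23), and Hoxb2 had 114 and 62.2, against 317 and 264 (-1.60, SE 0.30). Hoxc4 was at 10 on both placode arrays, against 89.7 and 191.1, which makes it at least 13.1-fold lower. Hoxa2 was lower by -1.83 (SE 0.19). Of 9 genes for TALE cofactors of Hox proteins 2 were lower (0 on the deposited scale), Meis3 (-1.43, SE 0.43) and Meis1 (-1.25, SE 0.20). Meis1 lost its call without placode replicate 2 (-0.97), and Meis3 without placode replicate 1 (-1.27) or replicate 2 of the surrounding tissue (-1.08).

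Other tissues were represented unevenly. Of 15 genes of neural crest and Schwann precursors 2 were lower, Tfap2b (-1.90, SE 0.19) and the neurotrophin receptor gene Ngfr (-1.03, SE 0.26), and 1, Erbb3, was higher. Ngfr lost its call without replicate 1 of the surrounding tissue, at -0.99, and its other probe set changed by 0.28. The summed crest signal was 10960 and 10560 in the placode, against 11130 and 10850 around it. Of 10 somite and muscle genes, Myog (-1.56, SE 0.42) and Tnnc2 (-1.40, SE 0.41) were lower. Neither call held without placode replicate 1 (-1.49 and -1.28), nor Tnnc2 without replicate 1 of the surrounding tissue (-1.06). Of 13 heart and foregut genes, Apoe (-1.67, SE 0.39) and Gata6 (-1.66, SE 0.43) were lower, and Gata6 was not called without placode replicate 2, at -1.40. Actc1, the cardiac actin gene, was called higher by 1.27 (SE 0.33) on the strength of 1 array. It had 246 and 31.3 in the placode, against 29.5 and 31.0, and changed by 0.03 without placode replicate 1.

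**Figure D2:**
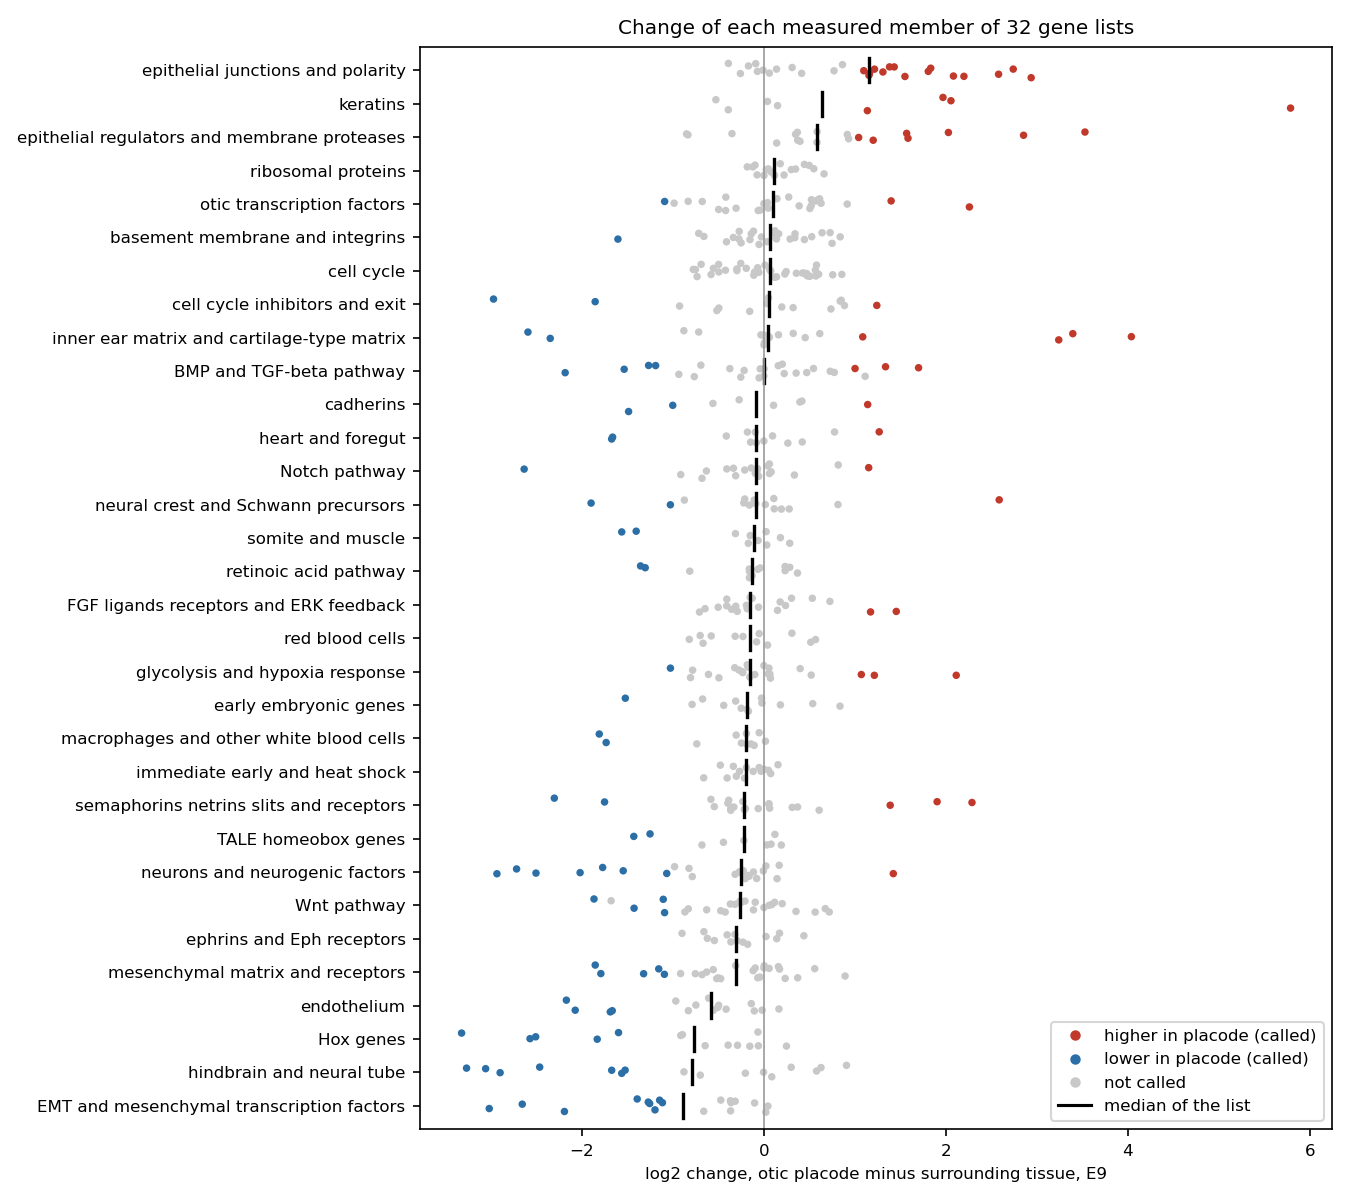
Log2 change at E9 (placode minus surrounding tissue) of every measured member of 32 gene lists, 1 point per gene, with the list median as a black bar. Called members are coloured. Junction genes (median 1.15) lie at the top and mesenchymal transcription factor genes (median -0.89) at the bottom, while the cell cycle, ribosomal, ephrin, red cell and immediate early lists hold no called gene.

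Of 26 measured otic transcription factor genes, 2 were higher (7.69%, beside 2.71% of all genes), 1 was lower (3.85%, beside 3.23%) and 23 were not called, with a median of 0.10 (5 higher and 0 lower on the deposited scale, where the median was 0.46). Their summed signal was 8877 and 8736 in the placode, against 8871 and 8992 in the surrounding tissue. Gata3 had 128 and 119 in the placode, against 10 and 16.8 (2.26, SE 0.28). Tbx2, a T-box repressor, had 54.4 and 50.6 in the placode and was at 10 on both surrounding arrays, which makes it at least 5.25-fold higher. Irx3, an Iroquois factor, had 282 and 309 in the placode, against 635 and 659 (-1.09, SE 0.33), but its call was lost without any 1 of the 4 arrays, with values of -1.16 to -1.03.

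Several textbook placode genes were not called, some of them with close signals in both tissues. Pax8 had 180.3 and 171.1 in the placode, against 141.1 and 144.4 in the surrounding tissue (0.27, SE 0.20). Dlx5 had 101 and 104, against 71.8 and 63.4 (0.51, SE 0.23), and Dlx3 had 217 and 230.1, against 235.9 and 225.7 (-0.04, SE 0.15). Eya1, a phosphatase and transcriptional cofactor of placodes, had 63.5 and 81.5 in the placode, against 36.1 and 25.8 (0.91, SE 0.19). Its adjusted p was 0.000681, yet the change stayed under 1 log2. Hmx3 had 75.0 and 54.7, against 29.9 and 47.6 (0.57, SE 0.29). Sox2 (-0.42, SE 0.15), Tbx1 (-0.42, SE 0.33) and Lmx1a (-0.06, SE 0.18) were not called either. Pax2 was not analysed here.

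2 Sox genes need a closer reading. Sox9 had 411 and 387 in the placode, against 296 and 251 in the surrounding tissue (0.52, SE 0.14), but another of its probe sets changed by 2.29 and was called when each probe set was tested alone. Sox10, which the otic epithelium shares with neural crest, had 286 and 326 in the placode, against 216 and 180 (0.60, SE 0.26). The ectodermal factors Tfap2a (0.58, SE 0.44) and Tfap2c (0.35, SE 0.40) were present in both tissues. Tfap2c had 863 and 721 in the placode, against 672 and 566.

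**Figure D3:**
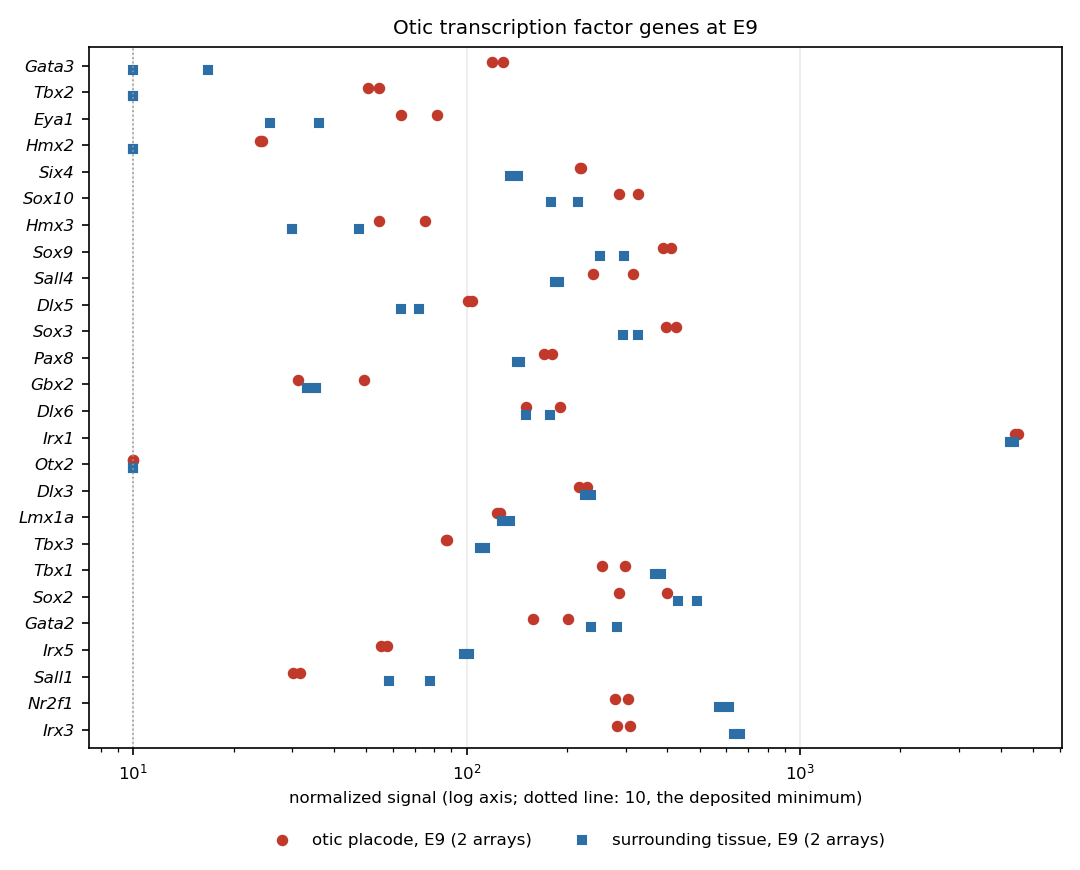
Normalized signal of each E9 array (log axis) for the 26 measured otic transcription factor genes, ordered by change; circles are placode arrays and squares surrounding tissue. Gata3 and Tbx2 stand clear at the top, Irx3 lies lower in the placode at the bottom, and most genes between them have signals close to each other in the 2 tissues.

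Of 21 FGF genes 2 were higher, the ligand gene Fgf9, with 89.7 and 81.4 in the placode, against 26.0 and 32.3 (1.17, SE 0.20), and Spry2, a feedback inhibitor of FGF signalling. Spry2 had 325 and 143 in the placode, against 69.9 and 67.9 in the surrounding tissue (1.45, SE 0.49). Its call was lost without placode replicate 1 (0.90) or either surrounding array (1.47 and 1.44). The inducing ligand genes Fgf3 (-0.36, SE 0.28) and Fgf10 (0.18, SE 0.30) and the receptor gene Fgfr2 (-0.19, SE 0.22) were not called.

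Of 26 Wnt genes 4 were lower and 0 higher, or 2 lower and 2 higher on the deposited scale, and 2 lower without replicate 2 of either tissue. 2 of them encode secreted Wnt antagonists: Frzb had 119 and 138 in the placode, against 524 and 497 in the surrounding tissue (-1.87, SE 0.34), and Sfrp1 had 122 and 69.2, against 226 and 204 (-1.09, SE 0.23). Wnt7a (-1.43, SE 0.39) and the agonist gene Rspo1 (-1.11, SE 0.35) had low signals in both tissues. Sfrp1 lost its call without placode replicate 2 (-0.75), Wnt7a without placode replicate 1 (-1.33) or surrounding replicate 2 (-1.14), and Rspo1 without placode replicate 2 (-0.88) or either surrounding array (-1.005 and -1.21). Wnt6, a ligand of ectoderm, had 190.2 and 196.0 in the placode, against 164 and 168 (0.20, SE 0.13), and was not called.

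BMP and TGF-beta genes moved both ways, 3 higher and 4 lower of 26, or 5 and 2 on the deposited scale. The ligand gene Bmp7 had 179 and 189 in the placode, against 51.6 and 76.9 in the surrounding tissue (1.34, SE 0.15), and Id4, a target of BMP signals, had 796 and 631, against 237 and 181 (1.70, SE 0.28). The ligand gene Bmp6 had 162 and 192 in the placode, against 495 and 596 (-1.54, SE 0.15). Tgfbi (-2.18, SE 0.31), a matrix protein induced by TGF-beta, and the secreted binding proteins Fstl1 (-1.27, SE 0.26) and Fst (-1.19, SE 0.24) were lower. Fst was not called without replicate 1 of the surrounding tissue, at -0.90. The other probe set of Bmp7 changed by -0.32.

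Of 20 Notch genes only Notch4 (lower) and Notch2 (higher) were called, 5% in each direction. Over all genes the shares were 3.23% lower and 2.71% higher. Notch2 had 307 and 174 in the placode, against 121 and 74.9 in the surrounding tissue (1.15, SE 0.41), and was not called without placode replicate 1 (0.77) or either surrounding array (1.45 and 0.86). Its other probe set changed by -0.42. Of 13 retinoic acid genes 2 were lower: Cyp26a1, which degrades retinoic acid, had 644 and 503 in the placode, against 1538 and 1329 (-1.31, SE 0.33), and the receptor gene Rarb was lower by -1.36 (SE 0.27). Cyp26a1 lost its call without placode replicate 2 (-1.13) and Rarb without surrounding replicate 2 (-0.996).

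Guidance genes were called on both sides, 3 higher and 2 lower of 23. Robo1, a Slit receptor, had 336 and 185 in the placode, against 42.4 and 34.8 in the surrounding tissue (2.29, SE 0.46). Sema3a, a secreted semaphorin that repels axons, had 169 and 184, against 32.9 and 38.3 (1.90, SE 0.23), and the netrin receptor gene Unc5c was higher by 1.39 (SE 0.22), while its other probe set changed by -0.04. Nrp2, a semaphorin and VEGF coreceptor, was lower by -1.75 (SE 0.34). Among 14 ephrin and Eph receptor genes limma called 0.

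Adhesion and matrix genes of the ear itself were partly in place at E9. Cdh2, which encodes N-cadherin, had 319 and 268 in the placode, against 123 and 125 in the surrounding tissue (1.14, SE 0.21), so both E- and N-cadherin genes were higher. The other probe set of Cdh2 changed by 0.74, under the 1 log2 needed for a call. Cdh13 was lower by -1.002 (SE 0.31), a call lost without either placode array (-1.10 and -0.90) or without surrounding replicate 1 (-0.70). Otog, the gene of otogelin in the membranes that cover sensory patches, had 366 and 377 in the placode, against 19.9 and 21.7 (3.39, SE 0.20). The collagen IX gene Col9a3 had 287 and 237.0, against 10 and 17.1 (3.24, SE 0.17), while its 2 other probe sets changed by 0.83 and 2.45. Hapln1, a link protein of hyaluronan, was higher by 1.09 (SE 0.29), a call lost without placode replicate 1 (0.95) or surrounding replicate 2 (1.05). Sparcl1, a relative of Sparc, was lower by -2.35 (SE 0.19). Oc90, the main protein of otoconia, was at the low end, with 10.1 and 21.6 in the placode, against 10 and 21.4. Of 28 genes for basement membrane and integrins 1 was called, Nid1, lower by -1.60 (SE 0.29), with 3 higher beside it on the deposited scale. The share of this list called lower was 3.57%, beside 3.23% of all genes.

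Slc2a3, which encodes a high-affinity glucose transporter, led the glycolysis and hypoxia list, with 4011 and 4464 in the placode, against 759 and 1228 in the surrounding tissue (2.11, SE 0.41), a call lost when only the E9 to E10.5 arrays entered the fit. The enolase gene Eno3 had 586 and 594, against 245.3 and 245.5 (1.21, SE 0.27), and Bnip3, a mitophagy gene, was higher by 1.07 (SE 0.22). The phosphofructokinase gene Pfkl was lower by -1.03 (SE 0.38), and the other 19 of 23 genes did not pass. Bnip3 lost its call without placode replicate 2 (0.94) or surrounding replicate 1 (0.79), and Pfkl without any 1 of the 4 arrays (-1.19 to -0.87).

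Cell cycle genes gave no call by limma, 0 of 37 with a median of 0.06, which was 0.44 on the deposited scale (2 higher) and -0.02 with arrays scaled to equal medians (1 lower). Among 15 genes of cell cycle exit, Btg2 and Gadd45g were lower and Btg1 was higher. Gadd45g, a stress and differentiation gene, had 223 and 232 in the placode, against 697 and 1070 in the surrounding tissue (-1.85, SE 0.24). Btg1 had 269.5 and 188.2, against 88.8 and 83.7 (1.24, SE 0.24), and lost its call without placode replicate 1, at 1.00. Of 13 early embryonic genes Dnmt3a, a DNA methyltransferase, was lower by -1.52 (SE 0.18). The immediate early and heat shock list (15 genes, median -0.19, or 0.15 as deposited) and the ribosomal list (17 genes, median 0.12) each had 0 calls, although the ribosomal median became -0.27 when arrays were scaled to equal medians.

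The E9 contrast was then set against the same contrast in the next stages. At E9.5 to E10.5, the ear exceeded its surroundings in 348 genes (3.72%) and fell short of them in 438 (4.68%), 8.4% in all. Of the E9 calls, 96 genes were higher in both windows, which is 37.9% of the E9 list and 27.6% of the later one. Lower in both were 150 genes, 49.7% of the E9 list and 34.2% of the later one. The windows share no array. The difference between the 2 contrasts was tested in the same fit. It was above the later contrast by at least 1 log2 for 259 genes (2.77%) and below it for 328 (3.51%), 6.28% together, and 173 and 270 of these were not called at E9 itself. A difference of this kind can come from either tissue, so the levels of both are given for a part of the genes named.

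Junction genes were higher in the later window too, 15 of 27 with a median of 1.71, and for 6 the E9 change was the smaller. Marveld2 had 789 and 705 in the placode, against 121 and 221 in the surrounding tissue at E9. It had 742 to 1548 on the 8 later ear arrays, against 67.5 and 73.9 in the later surrounding tissue (difference -1.52, SE 0.34). Prss8 had 1046 to 2082 on the later ear arrays, against 128 and 99.0 in the later surrounding tissue (difference -2.12, SE 0.35), and St14 had 574.5 to 1160, against 40.1 and 53.2 (difference -1.76, SE 0.26). For these 3 genes the surrounding tissue of E9 had the higher signal of the 2 surrounding groups. Ap1m2 (-1.04, SE 0.27) and Erbb3 (-1.35, SE 0.22) also had a smaller change at E9. Epcam (0.10, SE 0.23) and Wfdc2 (0.15, SE 0.25) showed no called difference.

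Neuronal genes gave the largest positive differences, and the signals of those named here were far higher in the later surrounding pools than in any other group. Of 24 neuronal genes 18 were lower in the ear in the later window, with a median of -2.28, and 16 differed between the windows. Stmn2, a microtubule regulator of neurons, had 157.5 and 114.6 in the placode, against 325 and 244 around it at E9. In the later window it had 17.8 to 162 in the ear, against 3442 and 4133 in the surrounding tissue (difference 4.88, SE 0.85). Ina, an internexin of neurofilaments, had 315 and 302 in the placode, against 339 and 283 at E9, and 153 to 337 in the later ear, against 3236 and 3490 (difference 3.77, SE 0.46). Nefl (3.78, SE 0.48), Neurog2 (3.24, SE 0.43) and Rbfox1 (3.34, SE 0.42), a neuronal splicing factor at 10 on all 4 E9 arrays, followed the same course. Hoxb1 (1.65, SE 0.30), Hoxb3 (1.21, SE 0.32) and Hoxc4 (1.15, SE 0.30) also had a smaller gap at E9.

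Further genes had their highest signals of the 4 groups in the later surrounding tissue. Col1a1 had 10 to 19.5 in the later ear, against 253 and 285 in the later surrounding tissue (difference 3.33, SE 0.58). F13a1, a transglutaminase gene of macrophages, had 13.6 and 10.1 in the placode, against 10 and 15.3 at E9, and 11.3 to 94.9 in the later ear, against 455 and 535 (3.42, SE 0.52). Trp63, the master factor of stratified epidermis, had 349 and 319 in the placode, against 132 and 216 at E9 (0.92, SE 0.58). In the later window it had 60.6 to 328 in the ear, against 597 and 744 (difference 3.44, SE 0.74), a value that was -0.24 with a pseudocount of 1, because a different probe set then stands for the gene. Hbb-bh1 and Hba-x both differed by 1.95, with later surrounding signals of 2975 and 2724 for Hbb-bh1.

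In a second set of genes the ear signals of the windows lay further apart than the surrounding signals. Oc90 had 111 to 3305 in the later ear, against 10 and 10 in the later surrounding tissue (difference -4.68, SE 0.30). Otog had 1395 to 2580 in the later ear, against 24.2 and 11.8 (-2.40, SE 0.25), and Col9a3 had 621 to 1724, against 10 and 10 (-1.91, SE 0.22). The reverse held for Bpgm, with 128 to 628 in the later ear, against 260.1 and 267.5 in the later surrounding tissue (difference 2.68, SE 0.28). Slc2a3 had 71.5 to 1409 in the later ear, against 268 and 284 (2.08, SE 0.52), and Krt23 had 63.5 to 1978, against 42.4 and 12.7 (1.74, SE 0.32). The matrix collagen gene Col14a1 had 39.8 and 46.6 in the placode, against 121.5 and 175.3 at E9, and 29.3 to 886 in the later ear, against 59.4 and 55.8 (-2.89, SE 0.56). Its E9 call (-1.46) was lost without placode replicate 1 (-1.37) or 2 (-1.54) or surrounding replicate 2 (-1.22). Fitm1 had 10 to 771 on the later ear arrays, against 112.7 and 96.4 in the later surrounding tissue (difference -4.36, SE 1.30), and this call too was lost without any 1 of the 4 E9 arrays.

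**Figure D4:**
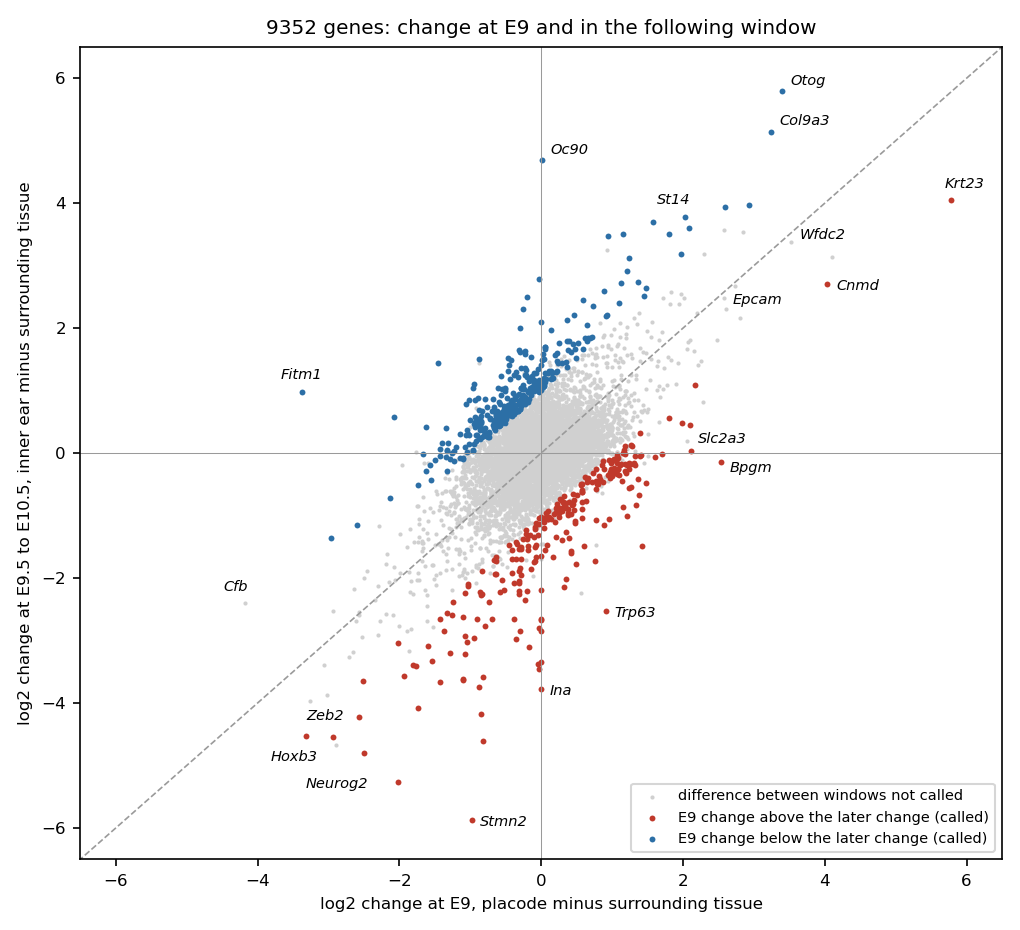
Log2 change at E9 (x axis) against the log2 change at E9.5 to E10.5 (y axis) for 9352 genes; the dashed line marks equal changes, and coloured points are genes whose changes differ by the test. Neuronal genes such as Stmn2 and Ina lie far below the line, Oc90, Otog and St14 above it, and Wfdc2 and Epcam near it.

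Over the whole series, the placode stood at an end of the range for some of the named genes. Among them, both placode arrays were above all 56 later inner ear arrays for Krt23 (45.7 to 1978 later), Bpgm (85.1 to 628), Slc2a3 (16.2 to 1409), Sox9 (191 to 373), Tfap2c (10 to 144) and Hapln1 (10 to 116), and also for Tfap2a, Egr2, Hoxb1 and Taar1. Both were below all 56 for Cnmd (791 to 8005), Otog (1395 to 10720), Col9a3 (621 to 7364), Fgf9 (95.5 to 767), Cfb (43.7 to 2355), Dnmt3a (163 to 3496) and Sox10 (436 to 2079), and also for Oc90, Btg2, Notch4, Pkp3, St14 and Gadd45g. Rgcc (765 to 3144) and Wfdc2 (109.8 to 1022) had later arrays on both sides of the placode. These ranges are a description, since the later arrays include other organs and a longer dispase time.

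**Figure D5:**
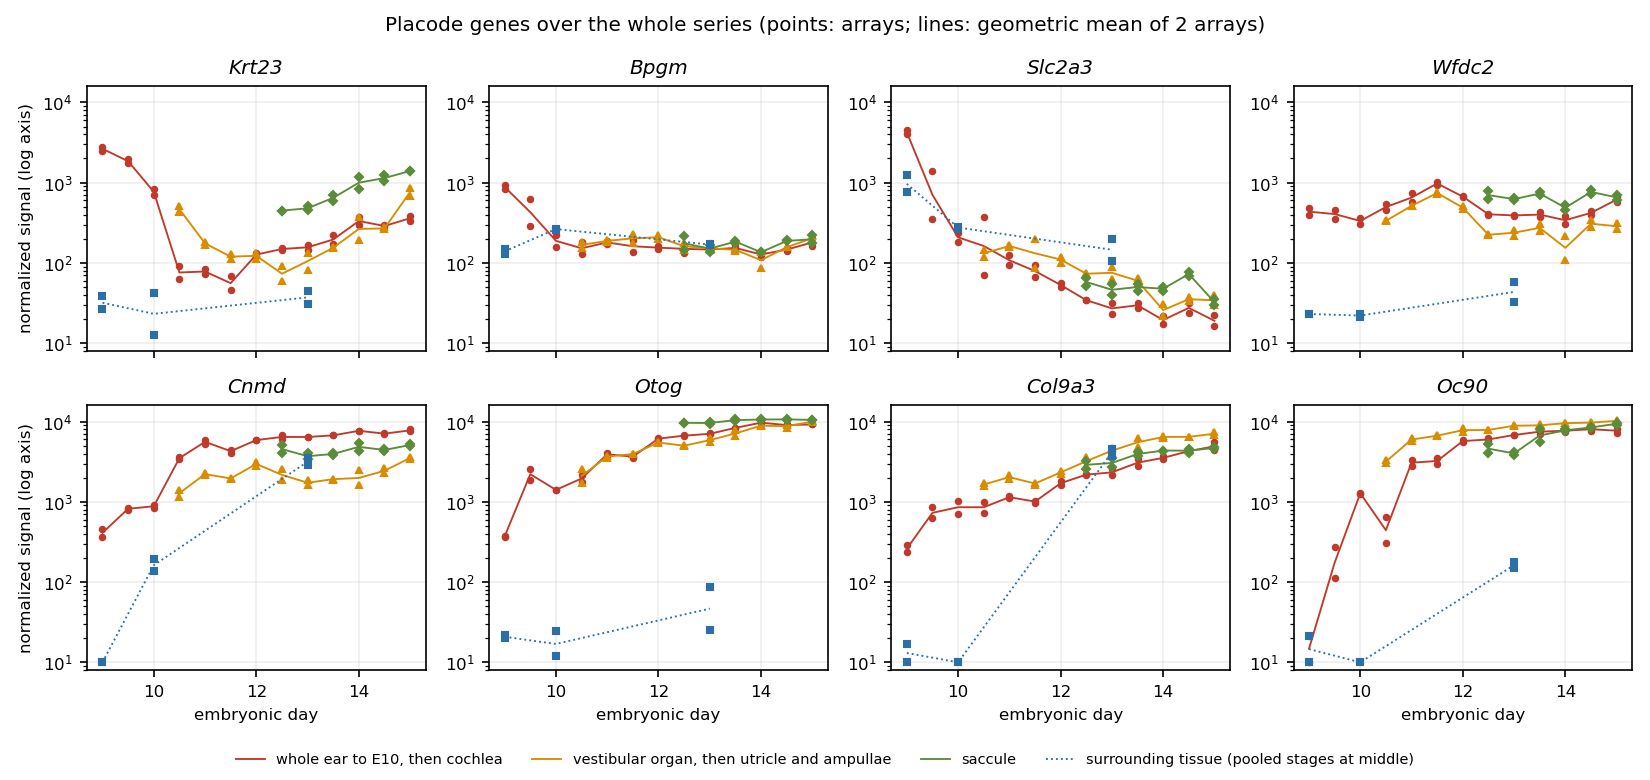
Normalized signal (log axis) by embryonic day for 8 genes, with each array as a point and the geometric mean of 2 arrays as a line. Whole ears run to E10 and continue as the cochlea, and the surrounding tissue has pools of several stages drawn at their middle. Krt23, Bpgm and Slc2a3 are at their highest in the E9 placode, Wfdc2 lies within 109.8 to 1022 on the later ear arrays, and Cnmd, Otog, Col9a3 and Oc90 have their lowest ear signals in the E9 placode.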

How the data were processed

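Biotin-labelled cRNA of each pool was hybridized to an Affymetrix array, per the labels' protocols. Deposited were intensities, 1 linear value per probe set, and the submitters' processing notes name MAS5 as the authors' tool. For its version, its scaling and any later step, the sources used here give nothing. The lowest deposited intensity is 10, at which 5.92% to 8.23% of values on the 4 E9 arrays lie, and the number of arrays limits the precision. Here the 64 arrays were quantile normalized and analysed as log2(signal + 16). Of 22626 probe sets, 20380 have 1 gene symbol, 691 several and 1555 none. Probe sets at or above their array's median on at least 2 arrays were kept (15337), and each of 9352 genes was represented by its brightest kept probe set with 1 symbol.

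A model with 1 mean per group (32 groups, 64 arrays, 32 residual degrees of freedom) was fitted with limma 3.58.1 in R 4.3.3, with variances following the mean signal, 2-sided tests and Benjamini-Hochberg adjustment over all genes. For the later window the stages E9.5, E10 and E10.5 were averaged with equal weight. P-values reflect how far pools from separate litters vary within groups. Each gene's spread comes from all 32 groups, most of them later than E9, and not from the E9 arrays alone. In a simulation of the E9 comparison over 9352 genes, 90% of 100 genes changed by 1.5 log2 and 100% of 100 changed by 3 log2 were recovered, with 1 false call.

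The 32 gene lists (830 genes) and all members were chosen with earlier results of these data known. Lists were described by counts and medians and not tested. The genes named are the 15 largest changes in each direction without overlap of the arrays, up to 6 called members of each list, a panel of 43 genes (some of them not reported here), and the 6 largest differences between windows in each direction. Genes named beside these as list members (Krt5, Krt14, Cldn7, Rab25 and Elavl2) were added after their values were seen. Alternatives were the values as deposited, pseudocounts of 1 and 64, other filters, each probe set alone, fewer arrays in the fit, no variance trend, a replicate block and leaving out each E9 array. Where a fold is given as at least a value, the other tissue was at 10 on both arrays, and the means of log2 signals were compared with that minimum.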

Additional observations from a re-analysis of the deposited data

Results flagged for a closer look

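The genes here were picked out because their placode-minus-surround change at E9 differed from the inner-ear-minus-surround change at E9.5 to E10.5 in a direct test of the difference (limma, adjusted p below 0.05 and at least 1 log2). Values are the E9 change minus the later change in log2. Neuronal genes had the largest positive values, with Stmn2 at 4.88, Nefl at 3.78, Ina at 3.77, Rbfox1 at 3.34, Neurog2 at 3.24, Stmn4 at 2.30, Gap43 at 1.79, Crmp1 at 1.64 and Fez1 at 1.61. Patterning genes of the neural tube were also positive, with Wnt7a at 2.24, Hoxb1 at 1.65, Meis1 at 1.35, Hoxb3 at 1.21 and Hoxc4 at 1.15. Mesenchymal, blood and macrophage genes on this side were F13a1 at 3.42, Col1a1 at 3.33, Mrc1 at 2.35, Hba-x at 1.95, Hbb-bh1 at 1.95 and Pdgfra at 1.25. The ectodermal genes Trp63 and Tfap2c were at 3.44 and 2.36.

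Among genes called higher in the placode at E9, Bpgm was at 2.68, Slc2a3 at 2.08, Krt23 at 1.74, Id4 at 1.72, Cdh2 at 1.59, Hapln1 at 1.34 and Cnmd at 1.33. Cnmd had 791 to 3610 in the later ear, above the placode, and its surrounding signal went from 10 and 10 to 137 and 191. Id4 had 403 to 1357 in the later ear, and its surrounding signal went from 237 and 181 to 601 and 682. Notch2 was at 2.02, Btg1 at 1.80 and Actc1 at 1.45, and the value of Actc1 rests on placode replicate 1. Rspo1, called lower in the placode at E9 (-1.11), was at 2.52. It had 55.5 and 46.1 in the surrounding tissue at E9, against 401.5 and 404.5 in the later surrounding tissue.

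On the negative side, matrix genes were Oc90 at -4.68, Col14a1 at -2.89, Otog at -2.40, Col9a3 at -1.91 and Sparc at -1.44. Of these, Col14a1 was lower in the placode at E9 (-1.46), and Sparc was lower in the ear in both windows (-2.59 and -1.15). Epithelial genes were Prss8 at -2.12, St14 at -1.76, Marveld2 at -1.52 and Ap1m2 at -1.04. Others were Fitm1 at -4.36, Taar1 at -2.81, Dpp4 at -2.69, Cideb at -2.66, Gata6 at -1.65, Btg2 at -1.62, Gli2 at -1.37, Erbb3 at -1.35 and Sox10 at -1.07. With 2 arrays per group, no outlying array could be tested for.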

How the results depend on the processing

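With the values as deposited, 863 genes were higher and 124 lower at E9, against 253 and 302. A pseudocount of 64 gave 117 and 159 at E9, and 163 and 173 for the difference between windows, against 259 and 328. With only the E9 to E10.5 arrays in the fit the difference had 148 and 147 genes. Scaling the deposited values to equal array medians, chosen after seeing the data, gave 506 genes with a negative difference. The cause of these shifts was not tested, apart from the lower array medians of the surrounding tissue. Leaving out each E9 array gave 194 to 277 higher and 273 to 289 lower genes, and 204 to 270 and 214 to 305 for the difference, with 214 reached without surrounding replicate 2. The difference of Trp63 became -0.24 with a pseudocount of 1. The other alternatives stayed within 1.5 times of these counts. With a replicate block the E9 counts were 254 and 304 and those of the difference 263 and 329. The labels do not state that equal replicate numbers mark a shared litter, and deviations of equally numbered E9 arrays correlated at 0.238 over 2 pairs, too few to decide a pairing. The 156 results for named genes include E9 changes of 144 genes, of which only 115 were called and could lose a call. With the values as deposited 16 results lost their call, and 33 with a pseudocount of 64. Some also lost their call without 1 of the 4 E9 arrays. Such fits leave 1 array in a group, whose spread is then taken to equal that of the rest. Signals near 10 carry little information, which limits Hoxc4, Tbx2, Oc90 and other dim genes.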

Other observations

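Some called genes outside the rule for named genes were chosen after their values were seen, and their values are given without a further test. The tetraspanin gene Cd9 had 248 and 167 in the placode, against 36.2 and 36.6 in the surrounding tissue (2.07, SE 0.20), and the lactate dehydrogenase gene Ldhb had 350.0 and 462.1, against 73.7 and 82.8 (2.15, SE 0.19). Lower in the placode were Bgn, a small matrix proteoglycan, with 83.4 and 60.7, against 539 and 473 (-2.58, SE 0.35), and Lcp1, an actin bundler of white blood cells, with 39.0 and 47.8, against 352 and 299.3 (-2.53, SE 0.35). The synaptic vesicle gene Syp had 122 and 107 in the placode, against 637 and 617 (-2.30, SE 0.45), and Vwf, of endothelium, had 52.5 and 73.4, against 222 and 249 (-1.68, SE 0.41).

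Taar1, Dpp4 and Cideb had the largest negative differences between the windows after Oc90, Fitm1 and Col14a1. Taar1 had 471 and 484 in the placode, against 507 and 467 in the surrounding tissue at E9, and 214 to 449 in the later ear, against 95.6 and 10 in the later surrounding tissue. Dpp4 had 75.6 and 75.0 in the placode, against 57.4 and 133.5 at E9, and 51.6 to 524 in the later ear, against 35.9 and 10. Cideb had 45.3 and 10 in the placode, against 182 and 128 at E9, and 94.1 to 241 in the later ear, against 104.8 and 112.0.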
